A study of Mus musculus with 4 samples.

Results

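Histone genes of mouse embryonic stem cells lacking Myh9 were compared with those of wild-type cells. A gene was taken if its name began with Hist1h, Hist2h, Hist3h, Hist4h, H2af or H3f3, or was H1f0 or H1fx, and was not marked as a pseudogene. This gave 85 of the 50600 genes listed. Of them, 69 lie in the 4 histone clusters and 16 lie outside the clusters, where most code for variant histones. One of the 16, H3f3aos, is an antisense RNA that meets the rule by name only. Outside the clusters, H2afx, H3f3a and H1f0 fell in Myh9 KO cells and the macroH2A genes H2afy and H2afy2 rose. In the clusters, Hist1h1c fell and Hist3h2a was called lower at values of 0 to 2. Of the 39 tested clustered genes, 29 had a log2 fold change below 0, against 47.9% of all genes tested. The groups overlapped for 22 of the 39, and 6 had a Myh9 KO mean below 1. Both tests called 5.13% of the 39 lower, near the 5.81% of all genes.

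Both groups were the OG2ES line, mouse embryonic stem cells derived from the inner cell mass and kept in ES medium with 2i, a pair of kinase inhibitors used to keep ES cells naive. The Myh9 KO group had 2 libraries and the WT group had 2 libraries. Myh9 codes for a heavy chain of non-muscle myosin. No agent was given beyond the shared medium, and how the knockout was made is not given in the sources used here. The labels name 1 knockout genotype and no separate clones, so the loss of Myh9 and a feature of that line or clone cannot be told apart. Nothing states that the libraries were separate cultures, so p-values measure only the spread between libraries, which may be technical. In bulk RNA, fewer cells of a kind and less RNA per cell cannot be told apart.

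Nucleosomes are built of the core histones H2A, H2B, H3 and H4, and linker histone H1 binds the DNA between them. Genes in the clusters supply the bulk of these proteins while DNA is copied, and their mRNAs usually end just after a stem-loop bound by SLBP instead of in a poly(A) tail. The replacement variants outside the clusters are made throughout the cell cycle from mRNAs that carry a poly(A) tail. These libraries were made from RNA enriched on oligo-dT beads, which hold RNA by its poly(A) tail, so a clustered gene's value reflects mainly those of its transcripts that the beads kept.

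The stem-loop was searched on the sense strand of GENCODE vM21 transcripts in 2 forms, the arms GGCTCT and AGAGCC or the arms GGCCCT and AGGGCC, each pair joined by TTTN, and 41 of the 83 histone genes with a transcript there held it. It was found in 46 of all 55450 genes searched, or 0.083%. The first form was in 31 histone genes and the second in 10, between 21 and 58 bases after the stop codon. The motif is printed in capitals, with its flanks in lower case, for the genes whose values the results below turn on. The first 5 are genes whose longest annotated transcript with the motif runs over 100 bases past it, and the last 3 are genes whose transcript ends near it.
Hist1h1c: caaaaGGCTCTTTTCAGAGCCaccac
H2afx: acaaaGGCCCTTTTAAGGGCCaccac
Hist1h4i: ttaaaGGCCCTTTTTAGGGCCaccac
Hist3h2a: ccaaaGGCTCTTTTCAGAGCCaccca
Hist1h3d: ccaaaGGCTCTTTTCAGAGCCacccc
Hist1h2ap: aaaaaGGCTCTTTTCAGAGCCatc
Hist1h2ad: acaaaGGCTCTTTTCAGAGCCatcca
Hist1h4n: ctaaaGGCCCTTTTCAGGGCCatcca
On mm10 these lie at chr13:23739507-23739532 on the plus strand for Hist1h1c, chr9:44335235-44335260 on the plus strand for H2afx and chr13:22040961-22040986 on the minus strand for Hist1h4i. The stretch of Hist3h2a is chr11:58955167-58955192 and that of Hist1h3d is chr13:23576239-23576264, both on the plus strand. Those of Hist1h2ap, Hist1h2ad and Hist1h4n are chr13:21833026-21833049 on the minus strand, chr13:23574890-23574915 on the plus strand and chr13:21831793-21831818 on the minus strand.

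The values were whole numbers whose totals were nearly equal, at 992245 and 992317 in the Myh9 KO libraries and 992128 and 992098 in the WT libraries, as per-million values give once decimals are dropped. They are not read counts, so the depth is unknown, and since it is not stated whether they are per length, levels are not compared between genes. Differences were tested with limma-trend on log2(value + 1) over the 11231 genes whose mean value reached 1, with Benjamini-Hochberg adjustment over all of them and a threshold of 0.05, here called the designed fit. Equal whole numbers in both replicates leave no spread, so a second fit added random decimals between 0 and 1 before the log and took the median adjusted p of 25 draws. The words rose and fell are kept for genes that both fits called. Adding 1 before the log makes the fold changes of low genes too small. Myh9 itself was 9 and 9 in the Myh9 KO libraries, against 83 and 100 in the WT libraries. All 8 ES cell markers were above 0 in every library, with Pou5f1 at 3104 and 3189 in Myh9 KO and 3045 and 3122 in WT libraries. Among these markers both fits called Sox2 and Dppa5a lower. Of 12 fibroblast markers, for the feeder cells such cultures can hold, 8 were at 0 in every library, Col1a1 and Col3a1 among them. The list summed to 343 and 387 in Myh9 KO and 408 and 432 in WT libraries. Nearly all of this was Vim, at 109 and 121 against 153 and 151, and Fn1, at 229 and 259 against 251 and 277. Thy1 and Pdgfrb, the others above 0, were at a few units. The part of feeder cells in any result was not tested.

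Of the 85 histone genes, 22 were listed at 0 in all 4 libraries, a further 14 were above 0 somewhere but under the filter, and 49 were tested. A 0 can be a failed estimate. The 85 genes held 0.687% and 0.697% of the total in the Myh9 KO libraries and 0.772% and 0.766% in the WT libraries. Both fits called 7 of the 49 (14.3%), 2 higher and 5 lower in Myh9 KO cells, against 11.0% of all genes tested. In the higher direction this was 4.08% of the histone genes against 5.16% of all genes, and in the lower direction 10.2% against 5.81%. The median log2 fold change was -0.29 for the tested histone genes and 0.00 for all genes, and 34 of the 49 were below 0 (69.4%, against 47.9% of all genes), with 14 above 0, against 45.2% of all genes. Both Myh9 KO values lay below both WT values for 21 histone genes (42.9%, against 27.3% of all genes), above them for 5 (10.2%, against 26.2%), and overlapped for 23. Of the 49, 6 had a Myh9 KO mean below 1 and 1 a WT mean below 1; such genes passed the filter only through the group where they are higher, so the counts and medians over tested genes, here and for the groups described further on, are descriptions and not support for a direction. The 27 genes with a mean from 1 to under 5 had a median log2 fold change of -0.54 and the 10 from 5 to under 20 had -0.50, while the 9 with a mean of at least 100 had -0.06. The designed fit alone called 2 higher and 7 lower, against 7.17% and 7.96% of all genes. Leaving out any 1 library ended the designed fit's call for H1f0, H2afy, H3f3a and Hist1h1c, and leaving out some did so for H2afx and H2afy2, while with random decimals the calls of these 6 genes held in all 4 cases. The fit with random decimals alone called 4 higher and 10 lower, against 11.1% and 11.9% of all genes.

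Values also moved with GC content. Among all genes tested, the fifth with the highest GC content, from 56.1% to 76.3%, had a median log2 fold change of 0.11, and the fifth with the lowest, from 31.0% to 45.0%, had -0.15. The histone genes lay mostly at the GC-rich end, 26 of 49 in that top bin, where the median of all genes had the opposite sign to that of the histone genes. Among the genes called lower by both fits, H2afx lay in that bin, at 62.3%. The others were H3f3a at 43.2%, in the lowest bin, Hist3h2a at 45.9%, H1f0 at 52.1% and Hist1h1c at 55.1%. H2afy and H2afy2, called higher, were at 50.9% and 54.3%. The designed fit was repeated with the GC trend removed. Among 24 histone genes followed across settings, the call was unchanged for 14, gained for 7 and lost for 3. Whether GC content is a cause of any call was not tested.

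**Figure D1:**
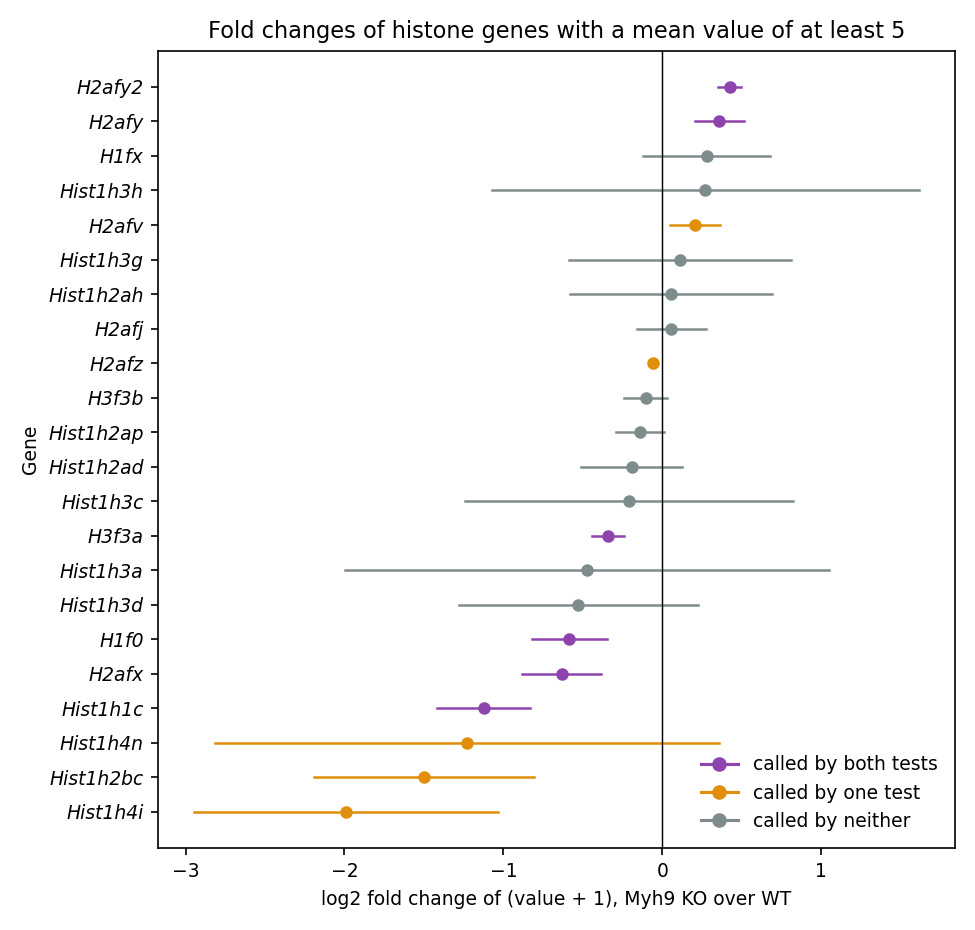
Log2 fold change of (value + 1), Myh9 KO over WT, with its 95% confidence interval, for the 22 histone genes whose mean value reached 5. Colour shows whether both tests, one test or neither called the gene, and H2afy2 and H2afy lie above 0 among the genes called by both while H3f3a, H1f0, H2afx and Hist1h1c lie below it.

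The replacement variants of H2A moved in different directions. H2afx, the variant that is phosphorylated at DNA breaks, was 589 and 659 in the Myh9 KO libraries, against 968 and 967 in the WT libraries. The groups did not overlap. H2afx (chr9:44334694-44336077) fell, by 0.63 on the log2 scale (SE 0.07, limma adjusted p = 0.0403, 0.000201 with random decimals), to 0.644 of the WT value with a 95% confidence interval of 0.543 to 0.765. The annotated gene runs 822 bases past its stem-loop, so it is a histone gene outside the clusters that carries the motif of the clustered ones. A gene on the opposite strand, Gm44335, overlaps it, and the libraries do not mark strand, so its reads cannot be told apart from those of H2afx.

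The macroH2A genes rose. These variants carry a large non-histone domain and are linked to silent chromatin. H2afy, for macroH2A1, was 191 and 203 in the Myh9 KO libraries, against 156 and 151 in the WT libraries. The log2 fold change of H2afy (chr13:56073619-56136361) was 0.36 (SE 0.04, limma adjusted p = 0.0459, 0.00327 with random decimals). Gm47071 overlaps H2afy on the opposite strand. H2afy2, for macroH2A2, was 52 and 52 in the Myh9 KO libraries, against 39 and 38 in the WT libraries, and its log2 fold change was 0.42 (SE 0.02, limma adjusted p = 0.0113, 0.00518 with random decimals). H2afy2 lies at chr10:61738665-61784147 and overlaps Aifm2. The values of both genes together were 243 and 255 in Myh9 KO and 195 and 189 in WT libraries, and H2afy3 was listed at 0 in all 4.

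The H2A.Z genes and H2A.J were not called by both tests. H2afz, for H2A.Z.1, which sits at promoters and enhancers, was 3352 and 3342 in the Myh9 KO libraries, against 3485 and 3496 in the WT libraries. Its log2 fold change of -0.06 (SE 0.01) was called by the designed fit (limma adjusted p = 0.0478) and not with random decimals (0.24), and its sign changed under quantile normalization. H2afv, for H2A.Z.2, was 177 and 168 in the Myh9 KO libraries, against 153 and 146 in the WT libraries (log2 fold change 0.21, limma adjusted p = 0.105, 0.0356 with random decimals). H2afj, for H2A.J, a replacement variant, was 106 and 108 in the Myh9 KO libraries, against 98 and 108 in the WT libraries. The groups of H2afj overlapped, and its interval allowed a ratio from 0.894 to 1.21. The testis variants H2afb1, H2afb2 and H2afb3 were listed at 0 in every library.

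**Figure D2:**
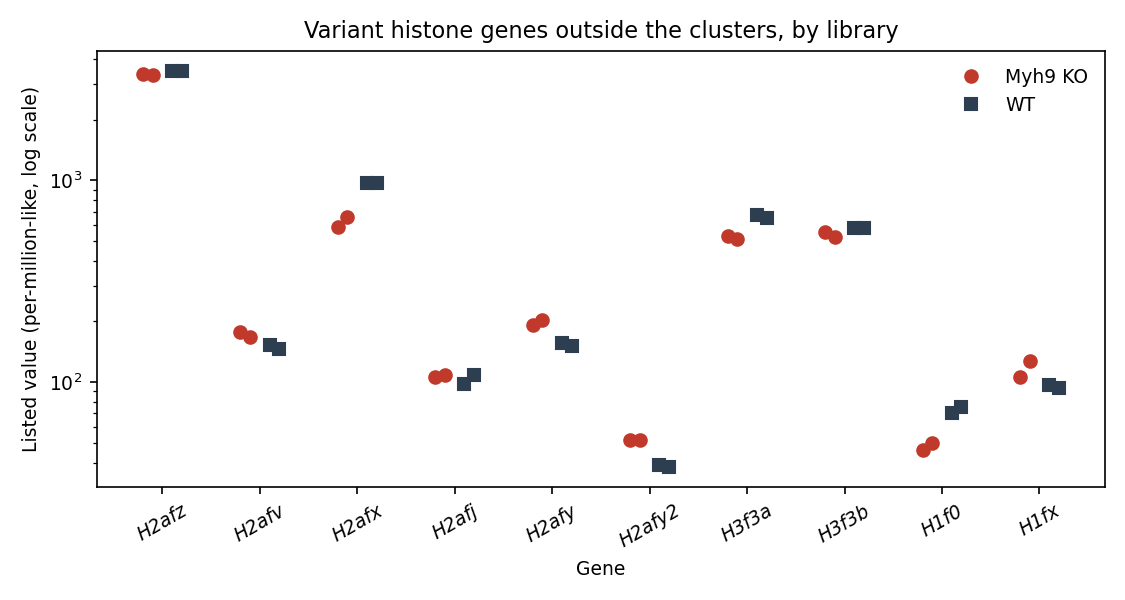
Listed value per library on a log scale for the 10 histone genes outside the clusters that were tested, with Myh9 KO libraries as circles and WT libraries as squares. H2afx, H3f3a and H1f0 lie lower in both Myh9 KO libraries, H2afy and H2afy2 lie higher, and the groups overlap for H2afj.

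H3.3, the replacement variant of H3 deposited outside DNA replication, is coded by H3f3a and H3f3b. H3f3a was 532 and 515 in the Myh9 KO libraries, against 673 and 653 in the WT libraries. It fell, by 0.34 on the log2 scale (SE 0.03, limma adjusted p = 0.0266, 0.00128 with random decimals). H3f3b was 557 and 524 in the Myh9 KO libraries, against 580 and 583 in the WT libraries, and was not called (log2 fold change -0.11, SE 0.04, limma adjusted p = 0.206), with an interval for the ratio of 0.845 to 1.02. H3f3a divided by H3f3b was 0.955 and 0.983 in the Myh9 KO libraries and 1.16 and 1.12 in the WT libraries. The difference between the changes of the pair was not tested. Both values summed to 1089 and 1039 in Myh9 KO and 1253 and 1236 in WT libraries. H3f3a (chr1:180800832-180813943) overlaps the antisense RNA H3f3aos, which was listed at 0 in every library. It also overlaps Gm17275 on the opposite strand, whose value is not given here, so the limit on strand given for H2afx holds for H3f3a too.

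The promoters of the H3.3 pair are printed because the genes code for the same protein from separate promoters. Each is the RefSeq window on GRCm38.p6 from 250 bases before to 50 bases after the start. Capitals mark ATTTGCAT or ATGCAAAT (the octamer), CCAAT or ATTGG (the CCAAT box), TATAAA or TTTATA (the TATA box) and AAACACA or TGTGTTT (the H1 box), in either orientation.
H3f3a: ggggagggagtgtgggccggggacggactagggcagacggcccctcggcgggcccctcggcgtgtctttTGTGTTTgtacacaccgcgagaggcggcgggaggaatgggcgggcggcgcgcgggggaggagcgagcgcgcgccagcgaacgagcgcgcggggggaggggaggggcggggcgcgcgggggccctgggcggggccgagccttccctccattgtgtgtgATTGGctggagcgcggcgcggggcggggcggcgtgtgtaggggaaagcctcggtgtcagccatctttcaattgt
H3f3b: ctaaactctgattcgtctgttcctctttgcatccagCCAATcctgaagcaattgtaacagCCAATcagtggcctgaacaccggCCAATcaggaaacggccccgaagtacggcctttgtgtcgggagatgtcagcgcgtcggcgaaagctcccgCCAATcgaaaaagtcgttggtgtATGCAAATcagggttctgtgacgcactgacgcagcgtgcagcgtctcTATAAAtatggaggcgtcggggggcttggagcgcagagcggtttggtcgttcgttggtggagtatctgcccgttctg
The window of H3f3a is chr1:180813556-180813855 and that of H3f3b is chr11:116024455-116024754, both on the minus strand. The H3f3b window holds the octamer, the CCAAT box and the TATA box, and the H3f3a window holds the CCAAT box and the H1 box. A match is a description of these letters and not a site of binding.

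Among the linker histones outside the clusters, H1f0, which is known to accumulate in cells that stop dividing, was 46 and 50 in the Myh9 KO libraries, against 70 and 75 in the WT libraries. H1f0 fell, to a ratio of 0.666 (log2 fold change -0.585, SE 0.07, limma adjusted p = 0.0421, 0.00142 with random decimals). Gm49544 overlaps H1f0 on the opposite strand. H1f0 (chr15:79028212-79030498) lies 1.19 Mb from Myh9, which is at chr15:77760587-77842175. Of the 92 tested genes within 2 Mb of Myh9, 4 were called higher and 3 lower by both fits, and their median log2 fold change was 0.07. H1fx, for H1.10, was 106 and 127 in the Myh9 KO libraries, against 97 and 94 in the WT libraries, and was not called (log2 fold change 0.28, SE 0.12, limma adjusted p = 0.239). Both Myh9 KO values of H1fx lay above both WT values. H1fx and H2afj lie on chromosome 6, where 169 of 555 tested genes (30.5%) were called higher by both fits and the median log2 fold change was 0.45.

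Most of the summed value of the 69 clustered genes, on the deposited scale, was listed under Hist1h2ap, a gene for canonical H2A. It was 939 and 971 in the Myh9 KO libraries, against 1084 and 1021 in the WT libraries, and made up 84.7% and 82.9% of the clustered sum in Myh9 KO and 81.1% and 79.1% in WT. Both Myh9 KO values of Hist1h2ap lay below both WT values, but it was not called (log2 fold change -0.14, SE 0.04, limma adjusted p = 0.172, 0.0583 with random decimals). Of its 50-base words, 93.1% occur in other genes, so reads of Hist1h2ap may belong to other H2A genes. All clustered genes summed to 1109 and 1171 in Myh9 KO and 1336 and 1290 in WT libraries, a ratio of 0.868. Without Hist1h2ap the sums were 170 and 200 in Myh9 KO and 252 and 269 in WT libraries, a ratio of 0.710. These sums carry no test.

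Of the clustered genes, 39 were tested, with a median log2 fold change of -0.47. Both Myh9 KO values lay below both WT values for 16 of them (41.0%, against 27.3% of all genes) and above for 1 (2.56%, against 26.2%), and 22 overlapped. Both fits called 2 lower (5.13%, against 5.81% of all genes), a share near that of all genes, and none higher. The genes outside the clusters, 10 of 16 tested, had a median of -0.00 and sums of 5708 and 5748 in Myh9 KO and 6319 and 6311 in WT libraries. Most clustered genes had values of a few units, and 27 of the 49 tested histone genes had a mean under 5, where 1 unit is a large step.

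Of the pair of clustered genes called by both fits, Hist1h1c, for the linker histone H1.2, was 8 and 7 in the Myh9 KO libraries, against 17 and 18 in the WT libraries. Hist1h1c (chr13:23738808-23740367) fell, to a ratio of 0.459 with an interval of 0.374 to 0.563 (log2 fold change -1.12, limma adjusted p = 0.0223, 0.000898 with random decimals). Its promoter, at chr13:23738557-23738856 on the plus strand, shows the H1 box and the CCAAT box, which were found in 5 and 6 of the 6 windows of clustered H1 genes.
Hist1h1c promoter: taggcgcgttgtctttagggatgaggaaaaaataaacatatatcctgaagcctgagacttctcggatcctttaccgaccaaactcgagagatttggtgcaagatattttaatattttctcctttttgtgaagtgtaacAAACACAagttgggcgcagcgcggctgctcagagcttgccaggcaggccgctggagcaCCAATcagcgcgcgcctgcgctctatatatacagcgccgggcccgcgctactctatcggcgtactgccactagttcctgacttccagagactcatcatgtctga
The other clustered H1 genes were at low values, and the 6 summed to 11 and 9 in Myh9 KO and 19 and 19 in WT libraries.

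Hist3h2a, an H2A gene of the third cluster on chromosome 11, was listed at 0 in both Myh9 KO libraries, against 2 and 2 in the WT libraries, and was called lower by both fits (limma adjusted p = 0.000126, 0.0137 with random decimals). With a mean of 1, it passed the filter only through its WT values, so it could pass only by being lower in Myh9 KO. No fold is given, since it is listed at 0, and it overlaps Trim17. With 1 library left out, the fit with random decimals kept the call in 2 of 4 cases, and 31.5% of the gene's 50-base words occur in other genes. Its neighbour Hist3h2ba was 0 and 1 in the Myh9 KO libraries, against 2 and 2 in the WT libraries. The cluster summed to 0 and 1 in Myh9 KO and 4 and 4 in WT libraries. The second cluster, on chromosome 3, had 3 of 10 genes tested and summed to 3 and 7 in Myh9 KO and 12 and 15 in WT libraries, and Hist4h4, the gene of the fourth cluster, was listed at 0.

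Of the clustered genes that 1 fit called, Hist1h4i and Hist1h2bc had the lowest fold changes. Hist1h4i, for H4, was 5 and 3 in the Myh9 KO libraries, against 17 and 20 in the WT libraries (log2 fold change -1.99, SE 0.28, limma adjusted p = 0.0537, 0.000399 with random decimals). Hist1h2bc, for H2B, was 5 and 6 in the Myh9 KO libraries, against 15 and 20 in the WT libraries (log2 fold change -1.50, SE 0.20, limma adjusted p = 0.0509, 0.00073 with random decimals). The groups did not overlap for either gene, but the designed fit missed its threshold. Of their 50-base words, 28.9% for Hist1h4i and 30.1% for Hist1h2bc occur in other genes. The fit with random decimals alone also called Hist1h4n, Hist2h3c2 and Hist1h2ag lower. Hist1h4n, for H4, was 2 and 5 in the Myh9 KO libraries, against 10 and 8 in the WT libraries (log2 fold change -1.23, limma adjusted p = 0.205, 0.0249 with random decimals). Hist2h3c2, for H3, was 0 and 1 in the Myh9 KO libraries, against 2 and 3 in the WT libraries. With a Myh9 KO mean of 0.5 it passed the filter only through its WT values, so its call is no support for a direction. Hist1h2ag, for H2A, was 2 and 2 in the Myh9 KO libraries, against 6 and 4 in the WT libraries. All of these low values are a few units apart. Of the 50-base words, 85.6% for Hist1h4n, 63.5% for Hist2h3c2 and 78.9% for Hist1h2ag occur in other genes. Hist1h2bj was the tested clustered gene whose Myh9 KO values, 5 and 8, lay above its WT values, 2 and 3 (log2 fold change 1.08, limma adjusted p = 0.152, 0.0242 with random decimals), and 59.4% of its 50-base words occur in other genes. Hist1h2ad, another H2A gene, was 45 and 52 in the Myh9 KO libraries, against 56 and 55 in the WT libraries, and was not called (limma adjusted p = 0.283). Hist1h3c was 8 and 13 in the Myh9 KO libraries, against 11 and 13 in the WT libraries, and Hist1h3h was 8 and 15 in the Myh9 KO libraries, against 8 and 10 in the WT libraries, with overlapping groups for both of these H3 genes. Hist1h3f, for H3, was 1 and 1 in the Myh9 KO libraries, against 2 and 2 in the WT libraries, and was called by the designed fit alone (limma adjusted p = 0.00111, 0.165 with random decimals).

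By position, the large cluster on chromosome 13 held 56 genes, of which 34 were tested. In its first stretch, chr13:21715763-22043676, 14 of 24 genes were tested with a median log2 fold change of -0.17, and the sums were 986 and 1032 in Myh9 KO and 1155 and 1091 in WT libraries. In its second stretch, chr13:23531050-23934851, 20 of 31 genes were tested with a median of -0.50, and the sums were 119 and 131 in Myh9 KO and 165 and 180 in WT libraries. Chromosome 13 as a whole had a median of -0.14 over 384 tested genes, and both fits called 8.59% of these lower and 1.82% higher.

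By type, the sums were lower in both Myh9 KO libraries for each of the 5 histone types. The H4 genes summed to 18 and 24 in Myh9 KO and 41 and 54 in WT libraries, a ratio of 0.442. The H2B genes summed to 18 and 24 in Myh9 KO and 32 and 37 in WT libraries, a ratio of 0.609. The H3 genes summed to 55 and 59 in Myh9 KO and 72 and 66 in WT libraries, a ratio of 0.826. The H2A genes other than Hist1h2ap summed to 68 and 84 in Myh9 KO and 88 and 93 in WT libraries, a ratio of 0.840. Within each type the median log2 fold change of the tested genes was below 0, from -0.19 over 11 H2A genes to -0.66 over 7 H2B genes, leaving out H1 with 2 tested. Hist1h4i alone accounted for 5 and 3 of the H4 sums in Myh9 KO libraries and 17 and 20 in WT libraries.

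**Figure D3:**
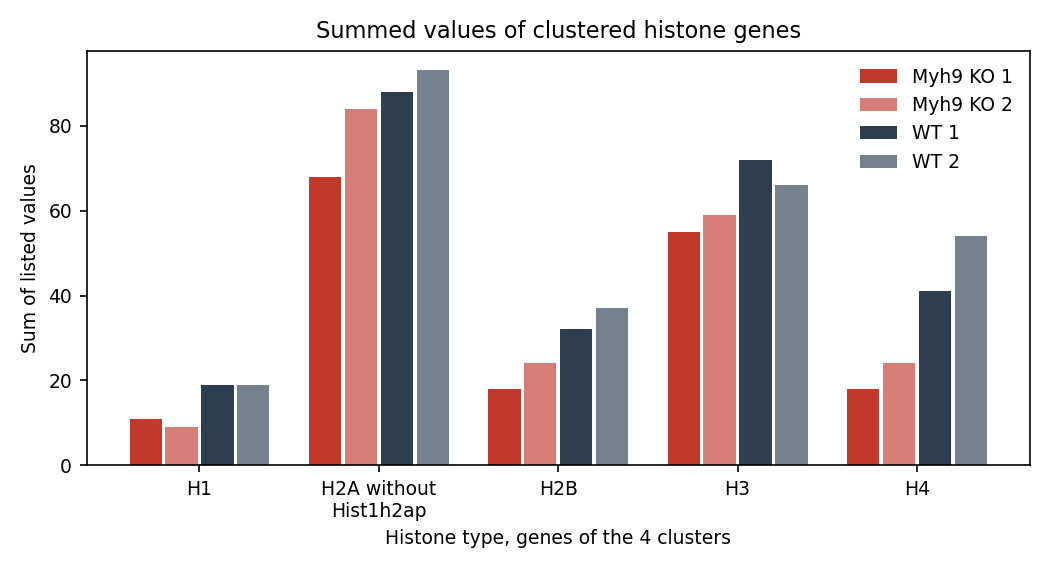
Sum of the listed values of the clustered histone genes by type, 1 bar per library, Myh9 KO libraries in red left of WT libraries in dark blue and grey, with Hist1h2ap left out of H2A. Every type is lower in both Myh9 KO libraries, and the gap is widest for H4, with 18 and 24 in Myh9 KO and 41 and 54 in WT.

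The clustered genes were grouped by where the annotated transcript ends relative to the stem-loop, a grouping made with the values known, so no test is given. The groups were not matched for GC content. In 20 genes the longest transcript with the motif ran over 100 bases past it. Of these, 12 were tested with a median log2 fold change of -0.75, and 4 had a Myh9 KO mean below 1. Both Myh9 KO values lay below both WT values for 8 of the 12 (66.7%, against 27.3% of all genes). The sums were 39 and 32 in Myh9 KO and 75 and 78 in WT libraries, a ratio of 0.464. Most of each sum came from Hist1h1c, at 8 and 7 against 17 and 18, Hist1h4i, at 5 and 3 against 17 and 20, and Hist1h3d, at 14 and 11 against 21 and 16. In 20 genes the longest transcript with the motif ended within 100 bases of it. Of these, 15 were tested with a median of -0.54, and 7 (46.7%) had both Myh9 KO values below both WT values. Without Hist1h2ap their sums were 83 and 108 in Myh9 KO and 121 and 123 in WT libraries, a ratio of 0.783. In 27 genes no motif was matched, 12 of them tested, with a median of -0.10 and 1 (8.33%) with both Myh9 KO values below both WT values. Their sums were 48 and 60 in Myh9 KO and 56 and 67 in WT libraries. No match does not show that the stem-loop is absent. In part of these genes the longest annotated transcript is short, with 312 bases in Hist1h4k, 393 in Hist1h2ai and 411 in Hist1h3h. A motif past such an annotated end could not be found. In others the transcript is longer, as in Hist1h2bc at 1156 bases. Both called clustered genes, Hist1h1c and Hist3h2a, were in the group with the longer end, as is Hist1h4i, while Hist1h2bc had no match. Hist3h2a passed the filter only through its WT values, so its place there is no support for the grouping.

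The gene ends in the deposited table differ from those of GENCODE vM21 for part of the genes, 62 of 83 having the same coordinates, so the grouping was made a second time with the listed gene ends. By that measure 12 genes ran over 100 bases past the motif. Of these, 8 were tested with a median of -1.10. All 8 had both Myh9 KO values below both WT values, against 27.3% of all genes. Of the 8, 4 had a Myh9 KO mean below 1 and passed the filter only through WT. The sums, which take in all 12 genes, were 16 and 15 in Myh9 KO and 48 and 53 in WT libraries, a ratio of 0.307. Most of each sum came from Hist1h1c, at 8 and 7 against 17 and 18, and Hist1h4i, at 5 and 3 against 17 and 20. The ratio therefore mainly describes these genes and not the group. The 28 genes that ended within 100 bases had 19 tested and a median of -0.47, with both Myh9 KO values below both WT values for 7 (36.8%). Their sums were 1045 and 1096 in Myh9 KO and 1232 and 1169 in WT libraries. The second measure gives the larger contrast and was tried after the first, so its size is not independent support. Hist1h3d, for H3, is in the longer group by transcript and in the near group by listed end; it was 14 and 11 in the Myh9 KO libraries, against 21 and 16 in the WT libraries, and was not called (limma adjusted p = 0.236).

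**Figure D4:**
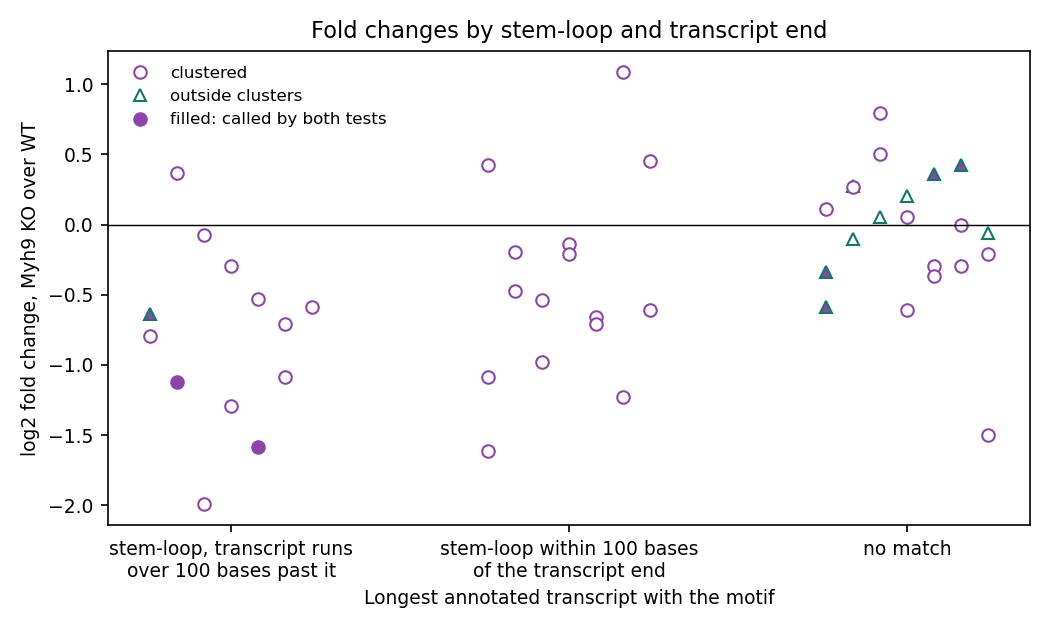
Log2 fold change of (value + 1), Myh9 KO over WT, of the tested histone genes by the end of the longest GENCODE transcript with the stem-loop motif, with clustered genes as circles and genes outside the clusters as triangles, filled where both tests called the gene. Of the clustered genes, the 12 whose transcript runs over 100 bases past the motif have the lowest median, -0.75.

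Promoter windows were matched for 73 of the 85 histone genes. The CCAAT box was in 82.2% of these windows, against 37.9% of all 27025 promoter windows of the same length, the TATA box in 49.3% against 14.2%, the octamer in 19.2% against 1.75% and the H1 box in 13.7% against 7.14%. The octamer was in 7 of 17 windows of clustered H2A genes and 6 of 16 of clustered H2B genes and in none of the 10 H3 and 12 H4 windows. The H4 windows held the CCAAT box in 3 of 12 and the TATA box in 8 of 12. These are shares of windows and were not set against the fold changes.

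Genes that handle histones were taken from fixed lists. Of 32 genes for histone mRNA processing and transcription, 28 were tested, none was called by both fits (11.0% of all genes were), and the median log2 fold change was -0.01. The designed fit alone called Pou2f1, a factor that binds the octamer, at 1 and 1 in Myh9 KO and 2 and 2 in WT libraries. Slbp, whose protein binds the stem-loop, was 128 and 139 in the Myh9 KO libraries, against 119 and 111 in the WT libraries (log2 fold change 0.21, limma adjusted p = 0.174). Upf1, a helicase of histone mRNA decay, was 136 and 153 in the Myh9 KO libraries, against 86 and 94 in the WT libraries (log2 fold change 0.68, limma adjusted p = 0.0534, 0.000676 with random decimals). It lies on chromosome 8. The other genes there from the lists used here were Lsm1, Eri1, Asf1b, Cdt1 and Zfp42. Their log2 fold changes were 0.514, 0.132, 0.421, 0.22 and 0.465. A shift of the whole chromosome was not tested. Npat, which drives transcription of the clusters, was listed at 0 in every library.

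Of 38 histone chaperones and deposition factors, 35 were tested, and both fits called 2 higher (5.71%) and 1 lower (2.86%), against 5.16% and 5.81% of all genes, which is near the share over all genes. Mcm2, a helicase subunit that also binds H3 and H4, was 670 and 710 in the Myh9 KO libraries, against 427 and 453 in the WT libraries, and rose (log2 fold change 0.65, limma adjusted p = 0.0254). It lies on chromosome 6, with the shift given above. Tonsl, a reader of newly made H4, was 165 and 160 in the Myh9 KO libraries, against 132 and 137 in the WT libraries, and rose (log2 fold change 0.27, limma adjusted p = 0.0425, 0.0102 with random decimals). Rbbp4, a histone-binding subunit of several complexes, was 254 and 248 in the Myh9 KO libraries, against 281 and 279 in the WT libraries, and fell (log2 fold change -0.16, limma adjusted p = 0.0412, 0.0455 with random decimals). Of 18 genes that drive S phase, 17 were tested, with 1 called by both fits (5.88%, against 11.0% of all genes): Ccne1, a cyclin of S phase entry, was 267 and 260 in the Myh9 KO libraries, against 224 and 229 in the WT libraries (log2 fold change 0.22, limma adjusted p = 0.0379, 0.015 with random decimals), and the median of the list was -0.03. The designed fit alone also called E2f2, at 5 and 5 in Myh9 KO and 6 and 6 in WT libraries. Cenpa, the centromeric H3 variant that the naming rule leaves out, was 239 and 263 in the Myh9 KO libraries, against 234 and 230 in the WT libraries, and was not called (limma adjusted p = 0.354).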

How the data were processed

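RNA-seq values of 4 libraries, 2 from Myh9 KO and 2 from WT cells, were used. The deposited table was read as a score, since it held whole numbers with nearly equal totals, made by the authors by steps whose roles are not given in the sources used here. Bowtie2 2.2.5, RSEM 1.3.0, bcl2fastq and the builds mm10 and hg38 are named, with no role, per the submitters' processing notes. Because decimals were dropped and depth is unknown, no count test or counting interval was used. The members and gene lists were chosen with earlier results of these data known.

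Genes whose mean value reached 1 were tested with limma 3.58.1 in R 4.3.3 (limma-trend on log2(value + 1), Myh9 KO against WT, no replicate block). The fit with random decimals, 25 draws, was added after the data were seen, because equal whole numbers in replicates leave no spread. Named genes were Myh9, histone genes called by the designed fit with no overlap between groups, those with a mean of at least 10, every tested variant gene outside the clusters, those with the highest and lowest fold change, and up to 4 called members of each list. A gene that this rule names is left out of the text. Others, among them Hist1h4n, Hist2h3c2, Hist1h2ag, Hist3h2ba, Slbp, Upf1, Npat and Cenpa, were chosen after their values were seen. Alternatives were pseudocount 0.5, a minimum mean of 5 or no filter, quantile normalization, TMM scaling, removal of a trend on GC content, a replicate block and leaving out each library. Of the 85 genes, 83 were found in GENCODE vM21, which supplied transcripts, and RefSeq GRCm38.p6 supplied promoters. Shared words are stretches of 50 bases found in other genes' transcripts. The grouping by transcript end was made with the values known, and the grouping by listed gene end was added after the first.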

Additional observations from a re-analysis of the deposited data

How the results depend on the processing

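Deviations of same-numbered libraries from their group means correlated at 0.0407 over the genes tested. This single value cannot settle whether replicate numbers paired the libraries. With a replicate block, 10 genes were higher and 44 lower over all genes (805 and 894 without it), and 0 histone genes were higher and 1 lower (2 and 7 without it). With the GC trend removed, 4 histone genes were higher and 10 lower (987 and 1222 over all genes), and with the GC trend removed and the replicate block the counts were 1277 higher and 1559 lower over all genes and 5 higher and 18 lower among histone genes. With random decimals, 1243 of all genes were higher and 4 histone genes were higher. Leaving out 1 library at a time gave 599 to 1032 higher and 796 to 1030 lower over all genes, and 0 to 2 higher and 3 to 8 lower histone genes. The same with random decimals gave 776 to 1164 higher and 747 to 1391 lower over all genes, and 3 to 5 higher and 9 to 12 lower histone genes, with 11 lower without Myh9 KO replicate 1. Without WT replicate 2 there were 3 lower histone genes, and without Myh9 KO replicate 2 there were 0 higher. H2afz turned to 0.007 under quantile normalization. The cause of these shifts was not tested. In the designed fit, H1f0, H2afy, H3f3a and Hist1h1c lost their call whichever library was left out, and H2afx and H2afy2 lost it in 2 of 4 cases; with random decimals these 6 kept it in all 4 cases, and Hist3h2a in 2. The median log2 fold change of the histone genes, -0.292, was -0.167 with a minimum mean of 5, its smallest value. It was -0.375 with the GC trend removed, its lowest. Both moves are less than 0.181, the standard deviation of the median over the 4 pairings of a Myh9 KO with a WT library. These pairings share libraries, so 0.181 is not a spread between replicates. The stem-loop grouping moved from a ratio of 0.464 by transcript end to 0.307 by listed gene end. Whole numbers limit what can be seen at values of a few units.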
